A study of Arabidopsis thaliana with 10 samples.

Results

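The comparison described here sets Arabidopsis thaliana seedlings carrying full-length TaSIN, a transgene, against seedlings carrying a shortened form of it. It rests on 6 of the 10 arrays of the series: 2 of line FL3, which carries full-length TaSIN, and 4 of the lines ΔC26 and ΔC27, 2 arrays each, in which TaSIN lacks its transmembrane motif. Membership was read from the array titles. The series design describes expression of both forms as constitutive, without naming the promoter, and all seedlings were collected at 12 days of age from a 16 h photoperiod without stress. The controls of the series are VC, which carries the vector without TaSIN, and wild type Col-0. Their 2 arrays each were used here for the estimate of spread and as reference levels. Full-length TaSIN is represented by 1 line and the truncated form by 2, so whatever sets FL3 apart as a line cannot be told apart from the full length of its transgene. Arrays of a line are described as biologically independent. The annotation lists no probe set under that name, so how strongly either form was expressed is not known.

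A transmembrane motif holds a protein in a membrane. Some plant transcription factors are made with such a motif and reach the nucleus only once they are cut free, and a version made without it can enter the nucleus directly. In Arabidopsis, ANAC013 and ANAC017 are membrane-anchored factors of this kind that pass signals of mitochondrial dysfunction to nuclear genes such as those for alternative respiratory enzymes, efflux carriers and glutathione S-transferases. Whether TaSIN belongs to such a family is not stated in the labels. The comparison asks which transcripts differ between seedlings with and without the motif on the transgene's product.

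Levels are the deposited linear intensities, 1 per probe set and array, and differences are on the scale of log2(intensity + 16), FL3 minus the truncated lines, with their standard error (SE). Because 16 was added, a difference understates the change of a dim probe set, and levels of different probe sets cannot be compared. A probe set is called when its adjusted p from limma, over all 22746 probe sets tested, is under 0.05. Array medians lay between 41.7 and 44.2. The 2 arrays of FL3 were the most alike, with a correlation of 0.993 across probe sets and an SD of 0.206 for their log2 difference, against 0.9856 and 0.293 in ΔC26 and 0.9707 and 0.415 in ΔC27. ΔC26 replicate 1 correlated with an array of another line at 0.9887, and ΔC27 replicates 1 and 2 at 0.9709 and 0.9825, each above the value with its own replicate. The highest value of FL3 replicate 1 with another line was also 0.9887, and the partner arrays were not recorded. In whole seedlings, fewer cells of a type and less RNA per cell cannot be told apart.

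Far more of the called transcripts were lower than higher in seedlings with full-length TaSIN. The genes lower in FL3 included those for an acyltransferase, a threonyl-tRNA synthetase, a peroxidase, a polygalacturonase, 2 cytochrome P450s and the glutathione S-transferase GSTU22. Of 22746 probe sets, 47 (0.207%) were called against the mean of ΔC26 and ΔC27, 39 (0.171%) lower and 8 (0.0352%) higher in FL3, and 27 (0.119%) were also at least 2-fold apart. An unadjusted p under 0.05 was reached by 2446. The annotation gave a single gene for 26 of the 47, 22 lower and 4 higher. Differences ranged in size from 0.34 to 2.45.

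That count and its direction depended on single arrays. It was 11 without FL3 replicate 1 and 25 without FL3 replicate 2, 213 and 21 without ΔC26 replicates 1 and 2, and 152 and 543 without ΔC27 replicates 1 and 2. Leaving out a control array, which enters the spread alone, gave 15 without either VC array and 30 or 28 without Col-0 replicate 1 or 2. Higher calls outnumbered lower ones without ΔC26 replicate 1 (120 of 213 higher) and without FL3 replicate 2 (14 of 25 higher). Against ΔC27 alone, with the ΔC26 line left out of the fit, 126 of 204 calls were higher, whereas against ΔC26 alone, with the ΔC27 line left out, 27 of 119 were.

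The 2 truncated lines differed from each other in more probe sets than FL3 did from their mean. ΔC26 against ΔC27 gave 670 calls (2.95%), 483 (2.12%) higher and 187 (0.822%) lower in ΔC26. This contrast sets the lines with the least similar replicates against each other (correlations of 0.9856 and 0.9707). How its count moves when single arrays are left out is not given here. Among the 39 probe sets lower in FL3 the truncated lines differed in 15, with ΔC27 the higher in 11 and ΔC26 in 4. Set against each line alone, 12 of the 39 were called against both lines, 6 against ΔC26 only and 21 against ΔC27 only. Of the 8 higher in FL3, 2 were called against both lines, 2 against ΔC26 only and 4 against ΔC27 only. Over all 22746 probe sets, 14 were called against both lines, 40 against ΔC26 only and 183 against ΔC27 only. Calls against ΔC27 only were thus the more frequent over all probe sets too. A call against 1 line and not the other does not show that the lines differ. All 47 had the same sign against both lines, as did 13940 of all 22746, and the same arrays chose the 47, so this is a description.

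Levels in the controls put these differences in context. The mean of FL3 lay within the range of the 4 control arrays in 18 of the 39 lower probe sets, above it in 13 and below it in 8. Over all 22746 probe sets it lay within that range in 13320, above it in 4940 and below it in 4486. The truncated lines' mean was above every control array in 38 of 39, as it was in 6213 of the 22746. FL3 averaged under an intensity of 16 in 20 of the 39, and the truncated lines in 3, where over all probe sets FL3 did so in 7952 and the truncated lines in 7671. The FL3 arrays lay below all 4 truncated arrays in 38, AT3G44970 being the exception, and in 8.45% of all probe sets. For the 8 higher probe sets the arrays did not overlap in 7, AT2G32160 being the exception, and FL3 lay above all 4 truncated arrays in 8.16% of all probe sets. The same FL3 and truncated arrays chose these probe sets, so the counts in this paragraph are descriptions.

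**Figure D1:**
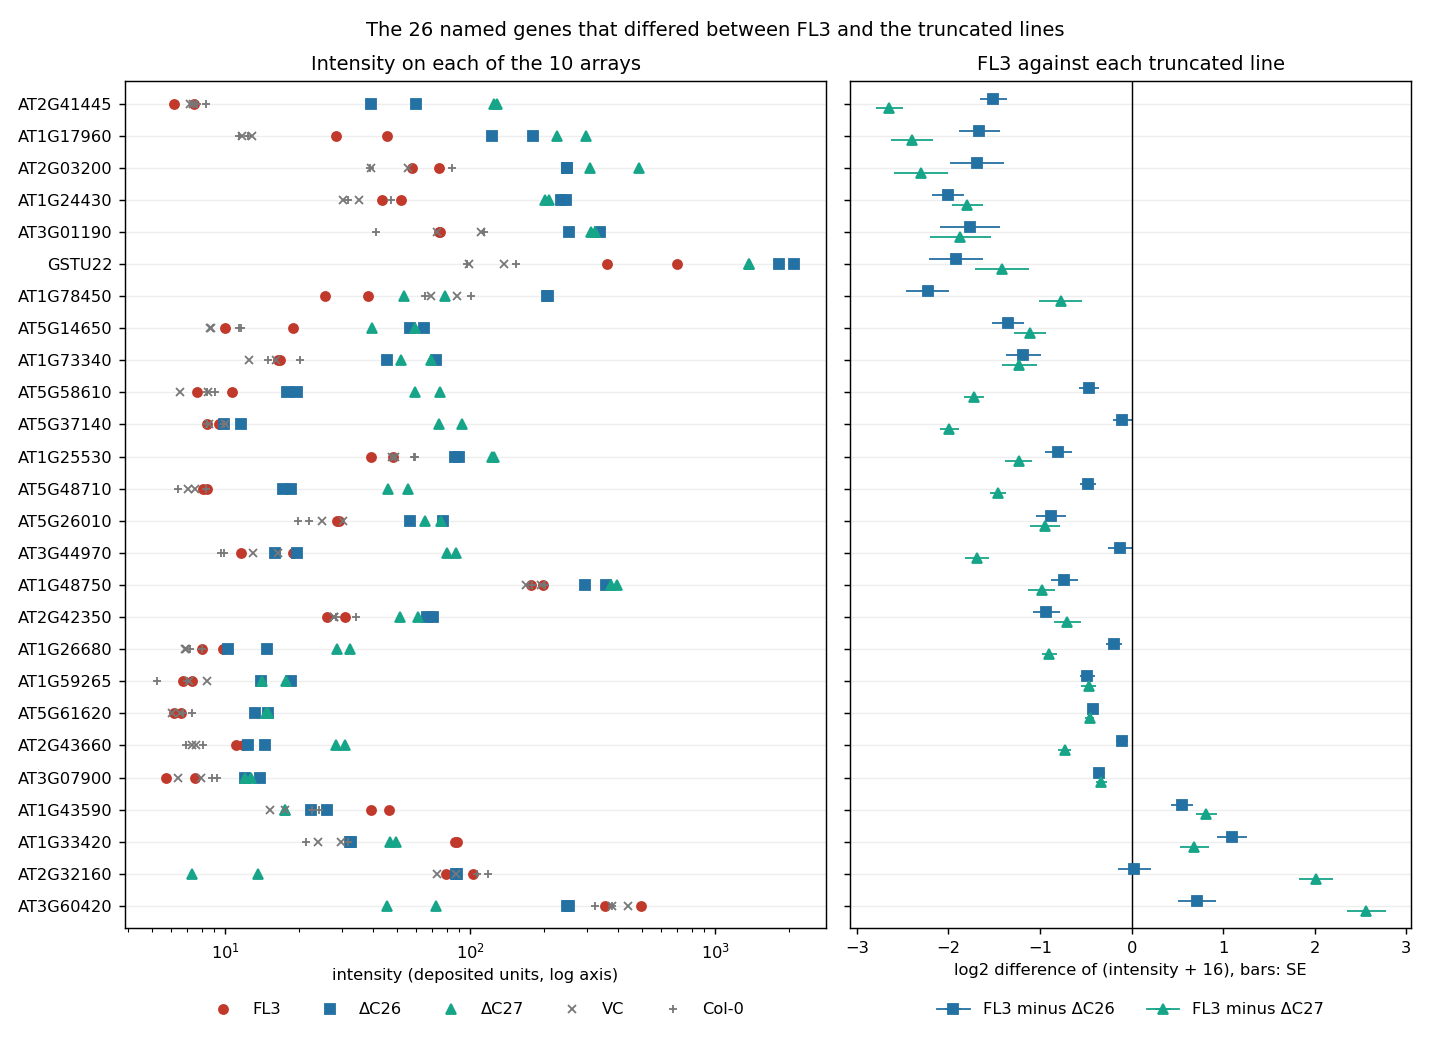
Left, intensity in deposited units on a log axis on each of the 10 arrays for the 26 called genes, ordered by their log2 difference, with 2 points for each line. Right, the log2 difference of FL3 from ΔC26 and from ΔC27, with bars of 1 SE. The 22 genes lower in FL3 lie left of 0 against both lines, and AT5G37140, AT3G44970, AT2G43660 and AT2G32160 lie near 0 against ΔC26.

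Among genes for metabolic enzymes, AT1G24430 encodes an acyltransferase of the BAHD family, whose members attach acyl groups to alcohols and amines of specialised metabolism. Its intensity was 52.2 and 43.7 in FL3, against 245 and 235 in ΔC26 and 209 and 201 in ΔC27, with 30.3 to 47.5 on the control arrays. Both truncated lines stood apart from FL3 by about the same amount, and the log2 difference was -1.90 ± 0.15 (adjusted p = 0.0017). ΔC26 and ΔC27 differed by 0.21 (adjusted p = 0.58). AT1G17960, for a threonyl-tRNA synthetase that loads threonine onto its tRNA, had intensities of 45.7 and 28.2 in FL3, against 181 and 123 in ΔC26, 225 and 298 in ΔC27 and 11.4 to 12.8 in the controls. FL3 was thus between the controls and the truncated lines, with a log2 difference of -2.03 ± 0.20 from the truncated lines (adjusted p = 0.004). Neither call ended when any 1 array was left out, with adjusted p of at most 0.037 and 0.0488.

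GSTU22 is a tau-class glutathione S-transferase, an enzyme family that joins glutathione to reactive compounds. Intensities were 700 and 363 in FL3, 1813 and 2098 in ΔC26 and 1369 and 1374 in ΔC27, with 97.1 to 154 in the controls. All 3 TaSIN lines were above every control array, and FL3 was the lowest of the 3. The log2 difference was -1.67 ± 0.25 (adjusted p = 0.047). The call ended without either VC array, either Col-0 array, FL3 replicate 2 or ΔC26 replicate 2, with adjusted p of up to 0.29. Tau-class genes lie in clusters of similar sequence, and whether this probe set reads GSTU22 alone was not tested.

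A pair of cytochrome P450 genes, for oxidising enzymes of specialised and hormone metabolism, differed in their pattern. AT1G73340 had 16.4 and 16.8 in FL3, against 45.8 and 72.7 in ΔC26 and 69.0 and 52.2 in ΔC27, with 12.5 to 20.2 in the controls. Its level in FL3 was thus within the range of the controls, and the log2 difference was -1.21 ± 0.17 (adjusted p = 0.03). AT3G44970 had 11.6 and 18.8 in FL3 and 19.5 and 16.0 in ΔC26, which overlap, but 80.4 and 87.7 in ΔC27. Its difference of -0.91 ± 0.12 (adjusted p = 0.022) came from ΔC27, since it was -1.69 against that line and -0.12 against ΔC26 (adjusted p = 0.8). The AT1G73340 call ended without any 1 of 7 arrays, the 4 control arrays, both FL3 arrays and ΔC26 replicate 2 (adjusted p up to 0.23). That of AT3G44970 ended without any 1 of 6, the 4 control arrays, FL3 replicate 1 and ΔC26 replicate 2 (up to 0.21).

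Among the genes lower in FL3, AT3G01190 encodes a class III peroxidase, an enzyme that couples wall phenolics or forms reactive oxygen at the wall. It had 74.5 and 75.3 in FL3, against 254 and 339 in ΔC26 and 311 and 322 in ΔC27, with 41.4 to 114 in the controls. Here ΔC26 and ΔC27 were alike (difference -0.10, adjusted p = 0.91), and FL3 was lower by a log2 difference of -1.82 ± 0.29 (adjusted p = 0.049). AT5G14650, for a polygalacturonase that cuts pectin, had 18.9 and 10.01 in FL3, against 56.7 and 64.6 in ΔC26, 59.7 and 39.7 in ΔC27 and 8.69 to 11.6 in the controls. The log2 difference was -1.23 ± 0.15 (adjusted p = 0.018). AT2G03200, for an aspartyl protease, had 74.3 and 58.0 in FL3, against 247 and 249 in ΔC26, 488 and 307 in ΔC27 and 38.9 to 84.1 in the controls, a log2 difference of -1.997 ± 0.26 (adjusted p = 0.022). In these 3 genes every truncated array was at least 2 times as bright as every FL3 array. All 3 calls ended without either VC array, either FL3 array or ΔC26 replicate 2, with adjusted p of up to 0.33, 0.18 and 0.22.

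Smaller differences were found in AT1G48750, which encodes a lipid transfer protein of the wall, and AT2G43660, whose product carries the X8 carbohydrate-binding domain. AT1G48750 had 198 and 177 in FL3, against 293 and 356 in ΔC26 and 376 and 396 in ΔC27, with 169 to 202 in the controls (log2 difference -0.86 ± 0.13, adjusted p = 0.046). AT2G43660 had 11.8 and 11.05 in FL3, against 14.5 and 12.4 in ΔC26 and 28.3 and 30.8 in ΔC27, with 6.89 to 8.14 in the controls. The 2 FL3 arrays of AT2G43660 were close to those of ΔC26, and its difference of -0.42 ± 0.06 (adjusted p = 0.04) was -0.10 against ΔC26 and -0.73 against ΔC27. Both calls ended without any 1 of the 4 control arrays, either FL3 array or ΔC26 replicate 2 (adjusted p up to 0.37 and 0.30).

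AT5G61620, also lower in FL3, encodes a MYB-like DNA-binding protein. Its intensity was 6.18 and 6.57 in FL3, against 14.9 and 13.2 in ΔC26 and 14.6 and 14.9 in ΔC27, with 6.03 to 7.31 in the controls. The 4 truncated arrays agreed closely, and the log2 difference of -0.44 ± 0.04 (adjusted p = 0.004) is small on this scale because all values lie below 16. AT5G58610, for a PHD-finger protein of the kind that reads histone tails, had 7.68 and 10.6 in FL3, against 17.8 and 19.6 in ΔC26, 59.4 and 75.0 in ΔC27 and 6.55 to 9.04 in the controls, a log2 difference of -1.09 ± 0.10 (adjusted p = 0.0021). AT1G26680, for a B3-domain DNA-binding protein, had 8.05 and 9.81 in FL3, against 14.8 and 10.3 in ΔC26, 28.6 and 32.4 in ΔC27 and 6.86 to 8.06 in the controls, a log2 difference of -0.54 ± 0.07 (adjusted p = 0.028). In AT5G58610 and AT1G26680 the level in ΔC27 was the highest, and ΔC26 lay between it and FL3. The calls of AT5G61620 and AT5G58610 ended without FL3 replicate 1 (adjusted p = 0.077 and 0.058). That of AT1G26680 ended without any 1 of the 4 control arrays or either FL3 array (up to 0.22).

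AT5G26010, for a protein phosphatase of the 2C class, had 29.1 and 28.6 in FL3, against 56.9 and 77.5 in ΔC26, 76.2 and 65.3 in ΔC27 and 19.9 to 30.3 in the controls. The log2 difference was -0.91 ± 0.14 (adjusted p = 0.048). AT2G42350, for a RING-type ubiquitin ligase of the ATL family, had 30.9 and 25.9 in FL3, against 70.6 and 66.7 in ΔC26, 61.0 and 51.6 in ΔC27 and 27.7 to 34.3 in the controls (log2 difference -0.82 ± 0.13, adjusted p = 0.049). Both genes were near the control level in FL3 and brighter on every array of both truncated lines. AT1G25530, for an amino acid transporter, had 48.3 and 39.4 in FL3, against 86.4 and 89.6 in ΔC26, 125 and 123 in ΔC27 and 47.8 to 59.7 in the controls, a log2 difference of -1.02 ± 0.13 (adjusted p = 0.018). The first 2 calls ended without any 1 of the 4 control arrays, either FL3 array or ΔC26 replicate 2, with adjusted p of up to 0.36 and 0.48. That of AT1G25530 ended without either VC array, either FL3 array or ΔC26 replicate 2 (up to 0.22).

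A further 6 genes lower in FL3 are given without a role. AT2G41445 had 7.44 and 6.17 in FL3, against 60.2 and 39.3 in ΔC26, 125 and 128 in ΔC27 and 7.14 to 8.37 in the controls. It was dim in FL3 and in the controls alike and bright in both truncated lines, with a log2 difference of -2.08 ± 0.13 (adjusted p = 0.00034). AT5G37140 had 9.43 and 8.44 in FL3 and 9.89 and 11.6 in ΔC26, against 74.7 and 92.5 in ΔC27, with 8.44 to 9.99 in the controls. Its difference of -1.05 ± 0.09 (adjusted p = 0.0021) therefore describes ΔC27, and that from ΔC26 was -0.10 (adjusted p = 0.78). AT5G48710 had 8.12 and 8.44 in FL3, 17.1 and 18.6 in ΔC26 and 55.6 and 46.1 in ΔC27, with 6.42 to 8.36 in the controls (log2 difference -0.97 ± 0.08, adjusted p = 0.0017). These 3 calls held without any 1 array, with adjusted p of at most 0.014, 0.0439 and 0.0439.

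AT1G78450 was brightest in ΔC26, with 25.6 and 38.2 in FL3, against 205 and 208 in ΔC26, 53.5 and 78.9 in ΔC27 and 65.1 to 100.2 in the controls. Its level in FL3 was below that of every other array, and the log2 difference was -1.50 ± 0.20 (adjusted p = 0.028), made up of -2.23 from ΔC26 and -0.77 from ΔC27. AT1G59265, whose probe set is of a type that can read more than 1 transcript, and AT3G07900 had small differences of -0.48 ± 0.07 and -0.34 ± 0.05 (adjusted p = 0.047 each) at intensities of 5.73 to 7.51 in FL3 and 12.0 to 18.5 in the truncated lines. The AT1G78450 call ended without either VC array, either FL3 array or ΔC26 replicate 2 (adjusted p up to 0.22). Those of AT1G59265 and AT3G07900 also ended without either Col-0 array (up to 0.33 and 0.32).

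The other 4 genes called were higher in FL3. AT3G60420, for a protein of the phosphoglycerate mutase family, had 499 and 353 in FL3, against 253 and 247 in ΔC26 and 72.7 and 45.5 in ΔC27, with 322 to 441 in the controls. FL3 overlapped the controls and ΔC27 was far below them, and the log2 difference of 1.64 ± 0.18 (adjusted p = 0.01) was 2.56 against ΔC27 and 0.71 against ΔC26 (adjusted p = 0.24). AT2G32160 had 102 and 79.3 in FL3 and 87.3 and 88.6 in ΔC26, against 7.32 and 13.6 in ΔC27, with 73.3 to 118 in the controls. FL3 and ΔC26 overlapped, so that its difference of 1.02 ± 0.16 (adjusted p = 0.047) again describes ΔC27. AT1G33420, for a PHD-finger protein, had 88.0 and 86.9 in FL3, against 32.2 and 32.5 in ΔC26 and 49.8 and 47.0 in ΔC27, with 21.3 to 31.8 in the controls (log2 difference 0.89 ± 0.14, adjusted p = 0.048). AT1G43590 had 39.4 and 46.6 in FL3, against 26.1 and 22.4 in ΔC26, 17.4 and 17.6 in ΔC27 and 15.2 to 24.1 in the controls (0.68 ± 0.10, adjusted p = 0.043). In AT1G33420 and AT1G43590 FL3 was above every other array of the series. The call of AT3G60420 ended without FL3 replicate 1 or ΔC26 replicate 2 (adjusted p up to 0.12). The other 3 ended without any 1 of the 4 control arrays, either FL3 array or ΔC26 replicate 2 (up to 0.33).

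Among called probe sets without a single gene, 261192_at and 251282_at were the 2 with the largest values above the truncated lines. The first had 787 and 801 in FL3, against 119 and 60.2 in ΔC26, 224 and 179 in ΔC27 and 42.6 to 53.4 in the controls, a log2 difference of 2.45 ± 0.21 (adjusted p = 0.0021). Probe set 251282_at had 1799 and 1795 in FL3, against 405 and 396 in ΔC26, 538 and 1024 in ΔC27 and 53.4 to 62.7 in the controls (1.69 ± 0.21, adjusted p = 0.018). Both were thus above the controls in all 3 TaSIN lines and brightest in FL3. In the other direction, 266217_at had 8.68 and 9.01 in FL3, against 52.1 and 55.6 in ΔC26, 217 and 232 in ΔC27 and 7.93 to 10.7 in the controls (-2.38 ± 0.11, adjusted p = 3.5e-05). Probe set 257641_s_at had 342 and 193 in FL3, against 2236 and 2398 in ΔC26, 599 and 478 in ΔC27 and 146 to 421 in the controls (-2.05 ± 0.27, adjusted p = 0.025), and its type can read more than 1 transcript. The calls of 261192_at and 266217_at held without any 1 array. That of 251282_at ended without either VC array, either FL3 array or ΔC26 replicate 2 (adjusted p up to 0.17), and that of 257641_s_at without either Col-0 array, either FL3 array or ΔC26 replicate 2 (up to 0.21).

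Against ΔC26 alone, the largest differences were in genes that were bright in ΔC26, among them a thionin and a methionine sulfoxide reductase. This contrast gave 54 calls (0.237%), 44 (0.193%) lower and 10 (0.044%) higher in FL3, of which 22 were also called against the mean of both lines and 28 had a single gene. Leaving out single arrays moved this count and its split. It was 25 without either VC array, 16 and 23 without FL3 replicates 1 and 2, 475 and 14 without ΔC26 replicates 1 and 2, and 113 and 111 without ΔC27 replicates 1 and 2. Without ΔC26 replicate 1 higher calls outnumbered lower ones, 304 to 171, and without FL3 replicate 2 there were 11 higher and 12 lower. The truncated lines differed from each other in 36 of the 54, a comparison that shares the ΔC26 arrays, and in 2.95% of all probe sets. MSRB6, for a methionine sulfoxide reductase that repairs oxidised methionine, had 29.3 and 18.5 in FL3, against 287 and 198 in ΔC26, with 16.4 and 11.8 in ΔC27 and 36.0 to 59.3 in the controls (-2.69 ± 0.21 from ΔC26, adjusted p = 0.0027). AT1G66100, for a thionin, an antimicrobial peptide, had 60.7 and 34.9 in FL3, against 352 and 320 in ΔC26, with 24.3 and 16.7 in ΔC27 and 181 to 288 in the controls (-2.49 ± 0.24, adjusted p = 0.005). In both genes FL3 resembled ΔC27 more than ΔC26, and all 4 of those arrays lay below the controls.

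AT5G62360, for an inhibitor of invertase or pectin methylesterase, had 52.7 and 67.4 in FL3, against 605 and 509 in ΔC26 (-2.92 ± 0.29, adjusted p = 0.005), and 64.1 and 39.9 in ΔC27. AT3G51450, of the strictosidine synthase-like family, had 72.3 and 83.7 in FL3, against 438 and 571 in ΔC26 (-2.46 ± 0.23, adjusted p = 0.004), and 91.4 and 53.1 in ΔC27. In AT5G62360 and AT3G51450 the arrays of FL3 and ΔC27 overlapped. AT1G78450, described above, was the fifth of the largest differences with FL3 lower. The MSRB6 call held without any 1 array. Those of AT1G66100 and AT3G51450 ended without ΔC26 replicate 2 (adjusted p = 0.055 and 0.053), and that of AT5G62360 without it or FL3 replicate 1 (up to 0.065).

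The 5 largest differences with FL3 higher than ΔC26 held WES1, AT2G04050, AT3G12860, AT1G27060 and AT1G33420. WES1 encodes a GH3 enzyme that conjugates auxin to amino acids. It had 522 and 487 in FL3, against 190 and 229 in ΔC26 (1.21 ± 0.17, adjusted p = 0.023), with 407 and 398 in ΔC27 and 678 to 937 in the controls, so that all 3 TaSIN lines lay below the controls and ΔC26 was the lowest. AT3G12860 had 92.2 and 82.8 in FL3, against 35.3 and 37.3 in ΔC26 (0.98 ± 0.14, adjusted p = 0.031), and 98.4 and 101 in ΔC27. AT1G27060 had 57.6 and 50.05 in FL3, against 17.2 and 24.4 in ΔC26 (0.93 ± 0.15, adjusted p = 0.047), and 39.0 and 38.1 in ΔC27. AT2G04050, for an efflux carrier, is described with the mitochondrial genes. The WES1 call ended without either FL3 array or ΔC26 replicate 2 (adjusted p up to 0.19). Those of AT3G12860 and AT1G27060 ended without any 1 of the 4 control arrays, either FL3 array or ΔC26 replicate 2 (up to 0.22 and 0.25), and that of AT1G27060 also without ΔC26 replicate 1.

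**Figure D2:**
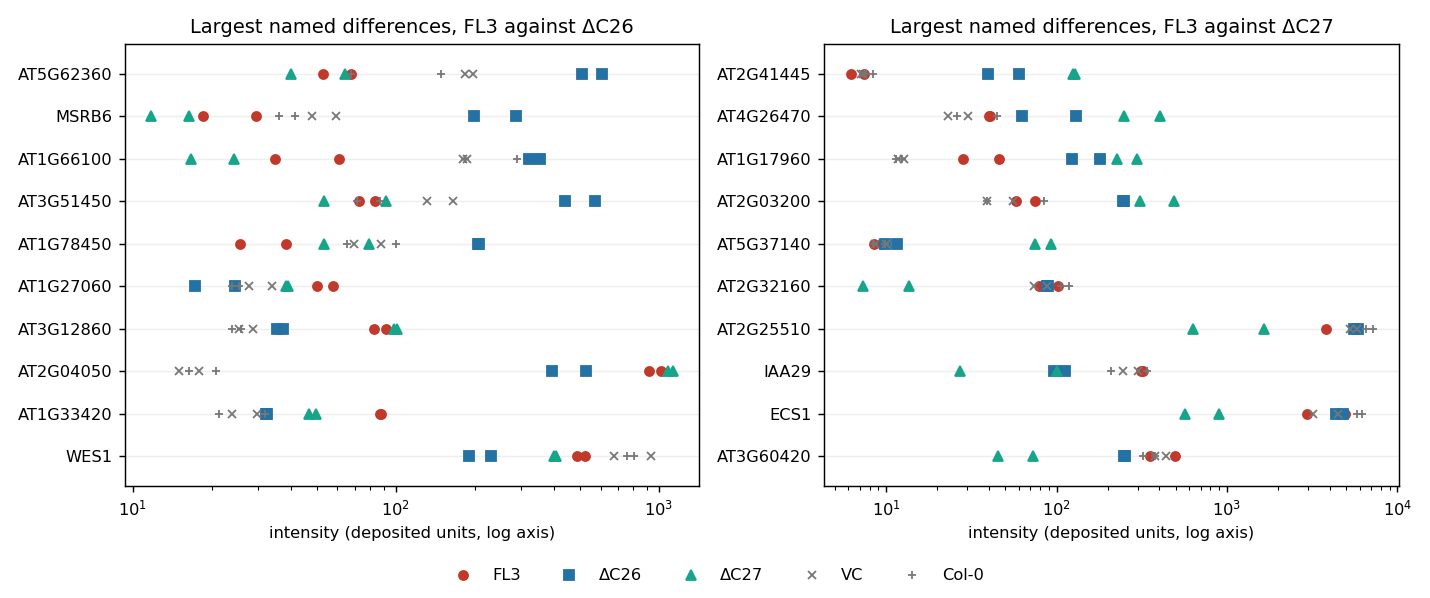
Intensity in deposited units on a log axis on each of the 10 arrays, for the 5 largest called differences in each direction between FL3 and ΔC26 (left) and between FL3 and ΔC27 (right), with 2 points for each line. On the left AT5G62360, MSRB6, AT3G51450, AT3G12860 and AT2G04050 have FL3 near ΔC27 and away from ΔC26, and on the right AT5G37140, AT2G32160, AT2G25510 and ECS1 have FL3 near ΔC26 and away from ΔC27.

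Against ΔC27 alone calls went in both directions. There were 197 (0.866%), 113 (0.497%) higher and 84 (0.369%) lower in FL3, and 39 of the 197 were also called against the mean of both lines. The fit gives each probe set 1 spread for all lines, so the median SE was 0.148 against ΔC27 and against ΔC26 alike. Replicates were less alike in ΔC27 (SD of their log2 difference 0.415) than in ΔC26 (0.293) or FL3 (0.206). The SE can thus understate the spread of ΔC27. How far this raised the count of 197 was not tested, so it does not show that FL3 was further from ΔC27 than from ΔC26. The truncated lines differed from each other in 113 of the 197, a comparison that shares the ΔC27 arrays, and in 2.95% of all probe sets. Lower calls outnumbered higher ones without FL3 replicate 1 (8 higher and 16 lower), without ΔC27 replicate 1 (109 and 117), without ΔC27 replicate 2 (371 and 708) and in a fit of the 6 FL3 and truncated arrays alone (10 and 16). The total was 37 without FL3 replicate 2, 90 without either VC array, and 123 and 122 without Col-0 replicates 1 and 2. ECS1, for a cell wall protein, had 4935 and 2941 in FL3, against 565 and 893 in ΔC27 (2.40 ± 0.28, adjusted p = 0.007), with 4817 and 4345 in ΔC26 and 3195 to 6185 in the controls. AT2G25510 had 5641 and 3808 in FL3, against 634 and 1653 in ΔC27 (2.16 ± 0.36, adjusted p = 0.033), with 5574 and 5897 in ΔC26 and 5267 to 7156 in the controls. In both genes FL3 and ΔC26 differed by less than their spread and ΔC27 was the line apart. The other 3 of the 5 largest were AT3G60420, AT2G32160 and IAA29. With FL3 lower, the 5 largest were AT2G41445, AT1G17960, AT2G03200, AT5G37140 and AT4G26470, whose product has EF-hand calcium-binding motifs. AT4G26470 had 40.1 and 40.5 in FL3, against 406 and 247 in ΔC27 (-2.57 ± 0.32, adjusted p = 0.01), with 130 and 62.3 in ΔC26 and 23.0 to 44.7 in the controls. Its call ended without either FL3 array (adjusted p up to 0.085) and that of ECS1 without FL3 replicate 1 (0.065). The call of AT2G25510 ended without any 1 of the 8 arrays outside ΔC27 (up to 0.17).

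The genes of mitochondrial dysfunction, the nuclear response in which the membrane-anchored factors named above act in Arabidopsis, had no member called between FL3 and the truncated lines' mean. Of 17 genes in the list 9 had a probe set, and by limma 0 of 9 were called, while 6 had an unadjusted p under 0.05. Over all 22746 probe sets 0.207% were called and 2446 had an unadjusted p under 0.05. Their median log2 difference was -0.44, against 0.00087 over all probe sets, with 6 of 9 below 0. AT2G21640, known as UPOX and induced by oxidative stress and mitochondrial dysfunction, had 2075 and 2043 in FL3, against 1877 and 1814 in ΔC26, 2594 and 2262 in ΔC27 and 29.2 to 57.3 in the controls. The 3 TaSIN lines were thus at like levels far above the controls, and the difference was -0.04, with a 95% interval of -0.43 to 0.36. AT5G51440, for a small heat shock protein of mitochondria, had 332 and 246 in FL3, 458 and 240 in ΔC26, 185 and 279 in ΔC27 and 15.5 to 24.3 in the controls (0.05, interval -0.53 to 0.63).

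A pair of genes of the alternative respiratory chain had probe sets. NDB4, for an alternative NADH dehydrogenase, had 11.2 and 11.3 in FL3, against 13.8 and 20.4 in ΔC26, 57.8 and 35.2 in ΔC27 and 9.94 to 11.2 in the controls. FL3 was near the control level, and NDB4 was called against ΔC27 (-1.18 ± 0.16, adjusted p = 0.013) but not against the mean of both lines (-0.73, interval -1.03 to -0.42, adjusted p = 0.083). NDB2, of the same family, had 225 and 125 in FL3, against 181 and 224 in ΔC26 and 312 and 237 in ΔC27 (-0.44, interval -0.94 to 0.06). The NDB4 call against ΔC27 ended without either FL3 array (adjusted p up to 0.096).

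The 2 FL3 arrays disagreed in GSTU25 and AT5G09570. GSTU25, a tau-class glutathione S-transferase, had 377 and 93.2 in FL3, against 655 and 553 in ΔC26 and 495 and 475 in ΔC27 (-1.43, interval -2.43 to -0.42, adjusted p = 0.31). AT5G09570, known as At12Cys and encoding a cysteine-rich mitochondrial protein, had 140 and 46.3 in FL3, against 133 and 214 in ΔC26 and 318 and 322 in ΔC27 (-1.34, interval -2.08 to -0.60, adjusted p = 0.19). In both, FL3 replicate 2 was within the range of the controls and replicate 1 above it. AT2G32020, for a GNAT-type acetyltransferase, had 311 and 288 in FL3, against 362 and 285 in ΔC26 and 1375 and 501 in ΔC27 (-0.76, interval -1.47 to -0.06), where ΔC27 replicate 1 stands alone.

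The remaining members of the list were on the higher side in FL3. AT2G41730 had 2328 and 1638 in FL3, against 1129 and 1230 in ΔC26, 1344 and 1250 in ΔC27 and 228 to 368 in the controls (0.65, interval 0.25 to 1.06, adjusted p = 0.24). AT2G04050, for a MATE-type efflux carrier, had 914 and 1020 in FL3, against 527 and 392.06 in ΔC26, 1133 and 1083 in ΔC27 and 14.9 to 20.7 in the controls. It was called against ΔC26 (1.06 ± 0.16, adjusted p = 0.041) and not against both lines (0.43, interval 0.12 to 0.75). Its call ended without any 1 of the 4 control arrays, either FL3 array or ΔC26 replicate 2 (adjusted p up to 0.30). The 95% interval excluded a 2-fold difference in either direction for 4 of the 9 genes, and for 94.7% of all probe sets, so a p that missed the threshold does not show that the other 5 were alike.

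**Figure D3:**
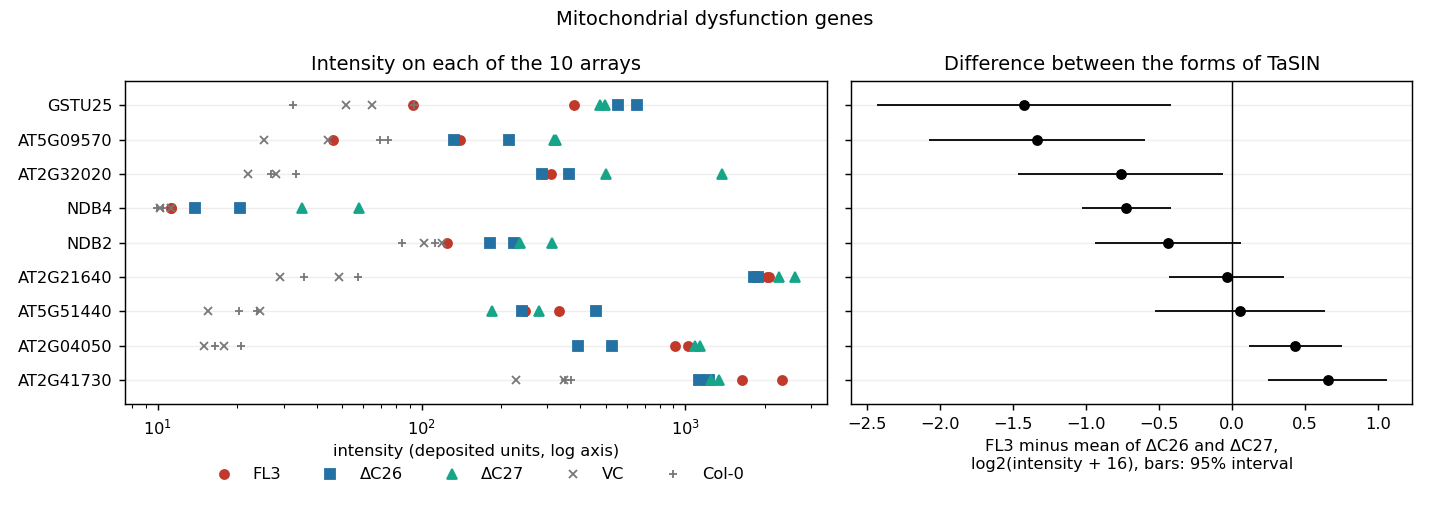
Left, intensity in deposited units on a log axis on each of the 10 arrays for the 9 mitochondrial dysfunction genes, ordered by log2 difference, with 2 points for each line. Right, the log2 difference of FL3 from the mean of ΔC26 and ΔC27 with its 95% interval. AT2G21640 and AT5G51440 lie near 0, and the intervals of GSTU25 and AT5G09570 are the widest.

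Among the glutathione S-transferases with a probe set, 14 of 48 in the list, GSTU22 was the only member called. Of 14 members with a probe set 1 was lower and 0 higher, 5 had an unadjusted p under 0.05, and the median difference was -0.07. Over all 22746 probe sets 0.171% were lower and 2446 had an unadjusted p under 0.05. The 12 members other than GSTU22 and GSTU25 had differences of -0.38 to 0.32.

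Auxin acts through Aux/IAA repressors, which it removes, and GH3 enzymes lower the free hormone by conjugation. The list held 83 genes, and 12 had a probe set. Of these 12 members 0 were called against the mean by limma (3 at an unadjusted p under 0.05), 1 was higher against ΔC26 (WES1) and 2 were higher against ΔC27. Over all probe sets 0.044% were higher against ΔC26 and 0.497% against ΔC27, and 2446 of 22746 had an unadjusted p under 0.05 against the mean. IAA29, an Aux/IAA repressor, had 320 and 312 in FL3, against 111 and 96.0 in ΔC26 and 27.04 and 101 in ΔC27, with 207 to 339 in the controls. The FL3 arrays were above all truncated arrays and within the controls' range, but the 2 arrays of ΔC27 disagreed, and the log2 difference was 1.85 ± 0.34 (adjusted p = 0.074) against the mean and 2.23 ± 0.39 (adjusted p = 0.039) against ΔC27. GH3.3, a GH3 enzyme like WES1, had 358 and 407 in FL3, against 286 and 265 in ΔC26 and 118 and 163 in ΔC27, with 274 to 621 in the controls (0.90 ± 0.16, adjusted p = 0.074, and 1.36 ± 0.19, adjusted p = 0.016, against ΔC27). The IAA29 call against ΔC27 ended without any 1 of the 8 arrays outside ΔC27 (adjusted p up to 0.23), and that of GH3.3 without either FL3 array (up to 0.14). The other 9 members had differences from the mean of -0.07 to 0.16.

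Other lists held few calls, and over all probe sets 0.193% were lower against ΔC26 and 0.369% against ΔC27. In the order given here, the lists held 122, 58 and 32 genes, of which 10, 47 and 5 had a probe set. Of 10 genes for cold, drought and abscisic acid protective proteins 1 was lower against ΔC26, LEA4-5, for a late embryogenesis abundant protein. It had 13.1 and 14.6 in FL3, against 31.7 and 33.9 in ΔC26, 28.1 and 21.4 in ΔC27 and 10.2 to 14.8 in the controls (-0.71 ± 0.11 from ΔC26, adjusted p = 0.039). FL3 was at the control level, below all truncated arrays. Among 47 UDP-glycosyltransferases 1 was lower against ΔC27, UGT71C1, with 22.1 and 17.9 in FL3, against 74.7 and 53.6 in ΔC27 (-1.14 ± 0.20, adjusted p = 0.037). Among 5 acyltransferase and phenylpropanoid genes 1 was lower against ΔC27, CCR2, for a cinnamoyl-CoA reductase, with 11.6 and 8.02 in FL3, against 49.4 and 24.4 in ΔC27 (-0.998 ± 0.18, adjusted p = 0.043). The calls of LEA4-5, UGT71C1 and CCR2 ended without any 1 of 7, 7 and 8 arrays, with adjusted p of up to 0.24, 0.28 and 0.31. Both FL3 arrays were among these for each gene, as were both VC arrays and ΔC26 replicate 2.

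By limma no member was called in any of the 3 FL3 contrasts among 24 cytochrome P450s (differences from the mean of -0.58 for CYP71B26 to 0.60 for CYP71B23), 30 cell wall loosening and pectin genes (-0.86 for XTH19 to 0.51 for EXPA8), 17 nutrient transporters (-0.50 for SWEET4 to 0.35 for SWEET2) and 69 transcripts of the plastid genome (-0.89 for psbK to 0.44 for psaA). Against the mean, 5, 3, 2 and 4 members of these 4 lists had an unadjusted p under 0.05, as did 2446 of all 22746 probe sets. The P450, peroxidase, wall, MYB-like and BAHD acyltransferase genes called above carry no symbol of their families in the annotation, and the lists do not hold them. The same held for 8 jasmonate and defensin genes (-0.94 for PDF2.5 to 0.41 for THI2.1), 8 antioxidant genes (-0.16 for SAPX to 0.34 for GRXC1), 7 heat shock and endoplasmic reticulum folding genes (-0.21 for CRT1b to 0.53 for ATERDJ2A) and 3 flavonoid genes (-0.28 for DFR to -0.10 for UGT78D2). It also held for 7 NAC, WRKY and MYB factors (-0.23 for WRKY53 to 0.14 for WRKY22), 2 class III peroxidases (-0.02 for PRXR1 to 0.32 for PRX52) and 15 genes of the mitochondrial genome (-0.64 for ccb382 to 0.02 for nad6). An unadjusted p under 0.05 against the mean was reached by 3 of 8 jasmonate and defensin, 1 of 8 antioxidant, 2 of 3 flavonoid and 5 of 15 mitochondrial genome members. It was reached by 0 heat shock and folding genes, 0 NAC, WRKY and MYB factors and 0 class III peroxidases. Of the 15 mitochondrial genome members 13 were below 0. In 3 lists, salicylate and defence, ERF factors, and MATE and ABC transporters, no gene had a probe set under its symbol. Coverage of the other lists in this paragraph ran from 7 of 269 NAC, WRKY and MYB factors to 69 of 129 plastid transcripts. It was 24 of 239 for cytochrome P450s and 2 of 24 for class III peroxidases. A list without a call therefore describes only its members with a probe set. The medians of these lists lay between -0.23 and 0.15. ΔC27 replicate 1 stood apart in several members, with WRKY53 at 358, against 16.6 in ΔC27 replicate 2, and XTH19 at 527, against 87.6.

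Of 8 photosynthesis genes 2 were called higher in ΔC26 than in ΔC27, where 2.12% of all probe sets were, with a median difference of 0.58 over the 8. Summed over 8 nuclear photosynthesis genes, of 44 in the list, intensity was 21240 to 21405 in FL3, 24902 to 27401 in ΔC26 and 16320 to 17975 in ΔC27. FL3 was thus between the truncated lines, and 0 of 8 were called in the 3 FL3 contrasts (0 at an unadjusted p under 0.05 against the mean, 5 against ΔC26 and 4 against ΔC27). Over all 22746 probe sets, 2446, 2552 and 3204 had such a p against the mean, ΔC26 and ΔC27. The median difference of the 8 from the mean was -0.04, with members from -0.08 for PSBW to 0.16 for LHCB4.2. Over the 5 root markers with a probe set, of 20, the sum was 2759 to 3896 in FL3, 2748 to 2963 in ΔC26 and 3586 to 4846 in ΔC27. Most of this sum was PYK10, a root beta-glucosidase, with 3741 and 2632 in FL3, 2804 and 2540 in ΔC26 and 3891 and 3396 in ΔC27. Of the 5 markers 0 were called (1 at an unadjusted p under 0.05 against the mean) and 4 were below 0. Their median was -0.57, with a lowest value of -0.86 for XTH19 and a highest of 0.01 for PYK10. The part of such shifts in the differences above, and above all in those between FL3 and a single truncated line, was not tested. Of 3 reference genes 0 were called, with differences of 0.06 for AT2G28390 to 0.16 for AT4G34270.

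Treating the 4 truncated arrays as replicates of 1 form left few calls. In a fit of 2 FL3 arrays against these 4, where the difference between ΔC26 and ΔC27 enters the spread, 2 probe sets were called, AT1G24430 and AT3G01190 (adjusted p = 0.038 each). With the 4 control arrays added to that fit, an alternative chosen after seeing the data, the count was 3, among them AT1G24430 (adjusted p = 0.0072) and AT5G61620 (0.0092). Using the 6 arrays alone but with a mean for each line gave 9 calls. AT1G24430 was the only 1 of the 26 genes past the threshold under every setting run. Of the 30 named probe sets called, 26 with a gene and 4 without, 6 were called from the 6 arrays alone, 2 in either fit of 2 groups and 7 whichever array was left out. A robust variance prior kept all 30 and the removal of the dimmest 33.3% of probe sets kept 29.

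**Figure D4:**
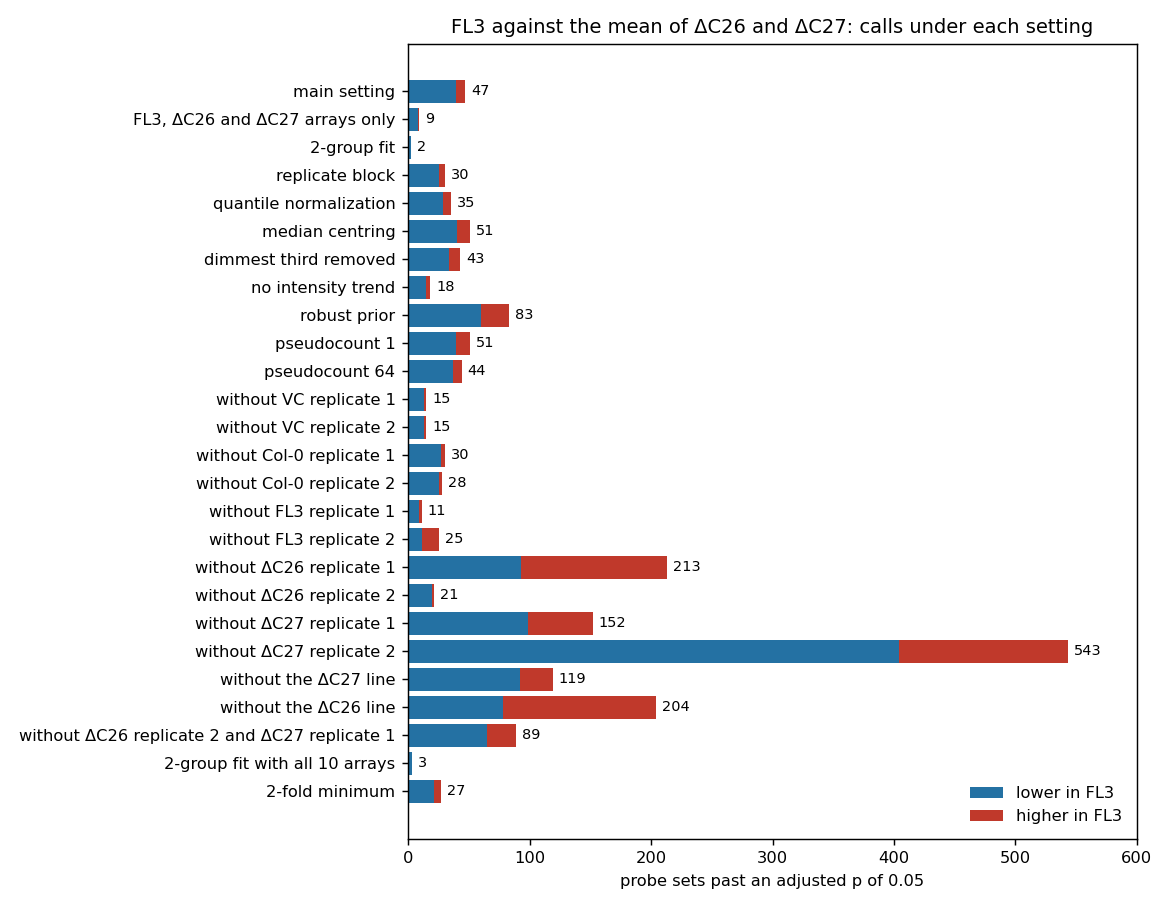
Number of probe sets called between FL3 and the mean of ΔC26 and ΔC27 under each setting, with the calls lower and higher in FL3 stacked and the total beside each bar. The bars run from 2 in the fit of 2 groups to 543 without ΔC27 replicate 2, against 47 in the setting used throughout.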

How the data were processed

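Total RNA of seedlings was extracted with Trizol, and biotinylated cRNA made from 200 ng of it was hybridised to Affymetrix arrays, per the labels' protocols. The authors deposited 1 intensity per probe set and array, on a linear scale from 3.68 to 12648. How values were summarised, normalized and corrected for background is not given in the sources used here, nor is a detection call, so neither scale nor background is known beyond the values. Raw scanner values were not used here. For arrays the small number limits the precision, 2 per line.

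Of 22810 probe sets, 64 AFFX controls were left out. The platform annotation gave 1 gene for 13513 of the other 22746, several for 503 and none for 8730, and 13436 were matched to a RefSeq locus (TAIR10.1) by gene identifier. Values were taken as log2(intensity + 16). Of all values 34.8% were below 16. With limma 3.58.1 (R 4.3.3) the 5 lines each got a mean from all 10 arrays, leaving 5 residual degrees of freedom, and variances were moderated with an intensity trend. Tests were two-sided, adjusted by Benjamini-Hochberg within each contrast and called at 0.05. The fit was tested on simulated data. The rule names every called probe set with 1 gene, the 5 largest differences in each direction against each truncated line among called probe sets whose arrays do not overlap, up to 4 called members of each list (otherwise its lowest and highest), all mitochondrial dysfunction members, and at most 2 higher and 2 lower called probe sets without a gene. Other genes were chosen after their values were seen. Members, gene lists and rules were chosen with earlier results of these data known. Lists were matched by symbol or locus and 1 probe set, the brightest, represented a gene. Replicate numbers were not used to pair the samples: over all probe sets, deviations of same-numbered arrays correlated between -0.2 and 0.086. Whether same-numbered arrays share a batch in some probe sets was not tested. Alternatives were a fit of 6 arrays, a fit of 2 groups, centring on medians, quantile normalization, a replicate block, leaving out the dimmest 33.3%, other variance priors, pseudocounts of 1 and 64, calls at least 2-fold apart, and fits without each array or truncated line. No sequences are given. Figures were drawn with matplotlib 3.10.9.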

Additional observations from a re-analysis of the deposited data

Results flagged for a closer look

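The following results were set aside for a closer look because the 2 truncated lines, which carry the same form of TaSIN, differed from each other. They did so in the same fit (limma, adjusted p under 0.05) in named probe sets called between FL3 and their mean. Among all 47 called probe sets the truncated lines differed in 18, and only the named ones are listed. On the log2 scale, ΔC26 minus ΔC27, ΔC27 was the higher in 266217_at (-1.785), AT2G41445 (-1.134), AT5G58610 (-1.255), AT5G37140 (-1.892), AT5G48710 (-0.978), AT3G44970 (-1.567), AT1G26680 (-0.7074), AT2G43660 (-0.6281) and 261192_at (-1.095). ΔC26 was the higher in 257641_s_at (2.081), AT1G78450 (1.454), AT2G32160 (1.985) and AT3G60420 (1.848). In 261192_at both truncated lines were below FL3, ΔC26 by more. How these differences between the truncated lines move when single arrays are left out is not given here.

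A single array stood far from the other 3 of the truncated lines in 3 of the 81 named probe sets. Its gap to the nearest array was 0.965 of the whole range for XTH19, whose highest array was ΔC27 replicate 1, 0.9747 for ATERDJ2A, whose lowest was ΔC26 replicate 2, and 0.8812 for IAA29, whose lowest was ΔC27 replicate 1. Chance flags about 1 in 20 such groups.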

How the results depend on the processing

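Against the mean of ΔC26 and ΔC27 the count of 47 became 9 with the 6 FL3 and truncated arrays alone, 2 in the fit of 2 groups (3 with the controls added), 30 with a replicate block, 18 without the intensity trend, 83 with a robust prior, 27 with a 2-fold minimum, 119 without the ΔC27 line, 204 without the ΔC26 line and 89 without ΔC26 replicate 2 and ΔC27 replicate 1 together, the last chosen after seeing the data. Leaving out each array in turn gave 11 to 543. Quantile normalization, median centring, removal of the dimmest 33.3% and pseudocounts of 1 and 64 gave 35 to 51. Against ΔC26 the count of 54 became 12 with the 6 arrays alone, 25 without the trend and 14 to 475 with 1 array left out, and 36 with the replicate block. Against ΔC27 the count of 197 became 26 with the 6 arrays alone, 122 with the replicate block, 118 with a 2-fold minimum, 304 without the same pair of arrays and 24 to 1079 with 1 array left out. Fewer arrays, or a spread that holds the difference between lines, are built into some of these alternatives, and for the others the cause was not tested. Under the replicate block 17 of the 30 named probe sets called against the mean were past the threshold. Whether same-numbered arrays share a batch in some probe sets was not tested, so why a call was lost under the block is not known.

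Over the named probe sets, 1706 results of alternatives kept their side of the threshold, 395 lost a call, 64 gained one and 111 that were never called moved by more than 1 SE. Direction was compared only for results called in the main setting or the alternative, so those never called may have changed sign. No called difference changed sign. Counting every probe set of a gene left the numbers called in each list as given. The planned description of promoter motifs was not run, as promoter sequences were not used here. With 2 arrays per line, 34.8% of all values below the added constant and no detection call, changes of dim probe sets are measured least well.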
